A study of Mus musculus with 2 samples.

Results

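The MAP kinase phosphatases Dusp1, Dusp2, Dusp4, Dusp5, Dusp6, Dusp7, Dusp8, Dusp9, Dusp10 and Dusp16 were read on microarrays of mature hepatocytes (MHs) and of Sox9+EpCAM- cells of injured mouse liver. Every spot that is not a control and carries one of these 10 gene names was taken, which gave 13 probes among the 39390 probes of 30153 genes that were left after spots marked as outliers were removed. The rule reads gene names and no values, but the set of genes was drawn up with earlier results of these data known. Of the 10 genes, 7 have 1 probe and 3 (Dusp7, Dusp8 and Dusp16) have 2 probes each.

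MAP kinases are switched on by phosphorylation of a threonine and a tyrosine, and the dual specificity phosphatases of this family switch them off by removing both phosphates. Dusp1, Dusp2, Dusp4 and Dusp5 encode nuclear enzymes, Dusp6, Dusp7 and Dusp9 encode cytoplasmic enzymes that act mainly on ERK, and Dusp8, Dusp10 and Dusp16 encode enzymes that act mainly on the stress kinases JNK and p38. Many of these genes are themselves transcribed in answer to MAP kinase signalling, which makes the phosphatases negative feedback regulators, and in hepatocytes the ERK, JNK and p38 pathways take part in proliferation, stress responses and survival.

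The study compared 1 array of MHs from healthy livers with 1 array of Sox9+EpCAM- cells. The latter were sorted from livers injured by a diet containing DDC, a compound that damages bile ducts. The stated aim was to learn how heterogeneous hepatocytes with features of both hepatocytes and cholangiocytes are. According to the study's methods both kinds of cells came from Sox9-EGFP mice, in which green fluorescent protein marks cells that express Sox9. Collagenase perfusion released the cells, MHs were then purified over Percoll, and FACS collected the Sox9+EpCAM- cells as those positive for the fluorescent protein and negative for EpCAM. The age of the mice, the number of mice behind each array and the length of DDC feeding for this array were not given in the sources used here, and both samples are labelled male. Injury, the way of isolation and the readings of sex-linked genes given below differ together between the 2 arrays and cannot be told apart. With 1 array per group no difference has a replicate check, no value has an SD or a p-value across samples, and precision is limited by the pair of arrays.

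Intensities are background-subtracted spot signals in arbitrary units, given with the error that the scanner software assigned to the spot. For differences each array was scaled to the 75th percentile of its 43020 spots that are not controls, which was 741 in MHs and 1110 in Sox9+EpCAM- cells, so an unchanged scaled level corresponds to a higher intensity on the second. Of these spots 27523 and 32158, respectively, were well above background, and 0 were saturated. The median SD between spots of probes printed at least 8 times was 0.08 on the log2 scale on either array, but each phosphatase probe was printed 1 time. Where a probe was not well above background on 1 array, its difference is a lower bound, for which the dim side was set to its own signal or to the dimmest signal that cleared background on its array (27.8 in MHs, 18.4 in Sox9+EpCAM- cells), whichever was larger. A difference of 4-fold, that is 2 on the log2 scale, was used as a rule of size. Fewer cells of a type and less RNA per cell cannot be told apart in such bulk samples.

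The label of the MH array went against its data in 1 respect. The 2 probes of Xist, the RNA that coats the inactive X chromosome in female cells, read 3500 and 1940 in MHs and 4.39 and 16.1, not well above background, in Sox9+EpCAM- cells. For 4 genes of the Y chromosome, read by 5 probes, 0 probes cleared background in MHs and 4 did in Sox9+EpCAM- cells. Both samples carry the same sex label, and the part of this contradiction in the differences was not tested. Of the 10 phosphatase genes Dusp9 lies on the X chromosome.

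All 7 hepatocyte markers were well above background on both arrays, and their summed scaled intensity was 986 in MHs and 441 in Sox9+EpCAM- cells. On the log2 scale they ran from -0.23 for Hnf4a to -2.46 for Tat and -8.58 for Cyp3a11. Sox9 itself was well above background in Sox9+EpCAM- cells only, where it was at least 1.45-fold higher, and Epcam, the gene of the antigen that the sort was negative for, was 13.3-fold higher there. The 7 cholangiocyte markers summed to 2.27 in MHs and 48.9 in Sox9+EpCAM- cells, with 6 and 7 of them well above background. Spp1, the gene of osteopontin, gave 42.3 of the second sum, while Cftr read 69.6 in MHs and 52.1 in Sox9+EpCAM- cells, Krt7 was at -0.23 on the log2 scale and Krt19 at 0.42. Markers of other cell types differed in both directions. For 10 fibroblast markers the sums were 12.2 and 54.4, with 6 and 9 well above background and Pdgfrb on neither array. Dcn gave 10.9 of the first of these sums, and 6 fibroblast markers, among them Col3a1 at 6.41 on the log2 scale, were at least 4-fold higher, with a median of 3.95 over 9. The 12 leukocyte markers summed to 17.5 and 3.61, with 10 well above background on each array. Cd74 gave 12.6 of the first of these sums, and Cd68 went the other way, at 3.85 on the log2 scale by 1 probe and from 55.2 to 469 in intensity by the other. The 7 endothelial markers summed to 6.92 and 2.09, with 6 and 5 well above background and Lyve1 on neither. The part of these other cell types in the phosphatase differences was not tested.

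Of the 10 phosphatase genes, 4 were higher in Sox9+EpCAM- cells by 4-fold or more, namely Dusp5, Dusp10, Dusp4 and Dusp6. The same rule held for 5.59% of the 23417 genes well above background on at least 1 array. Of the 10, 0 were at least 4-fold lower, against 5.57% of all genes. At 10-fold, 3 genes (Dusp4, Dusp5 and Dusp10) were higher, against 1.55% of all genes, and 0 were lower, against 1.47%. The 10-fold call of Dusp4 was lost with normexp (2.52 on the log2 scale). At 2-fold, the same 4 genes were higher, against 14.2%, and 1 gene, Dusp2, was lower, against 16.7%, a call lost with normexp (-0.81) and with Gapdh set equal (-0.82). The remaining 5 genes (Dusp1, Dusp7, Dusp8, Dusp9 and Dusp16) were within 2-fold or had a bound under 2-fold. The median log2 difference of the 10 was 0.53, beside -0.12 over the 21875 genes with a difference or a bound. These counts describe 2 arrays and were not tested.

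**Figure D1:**
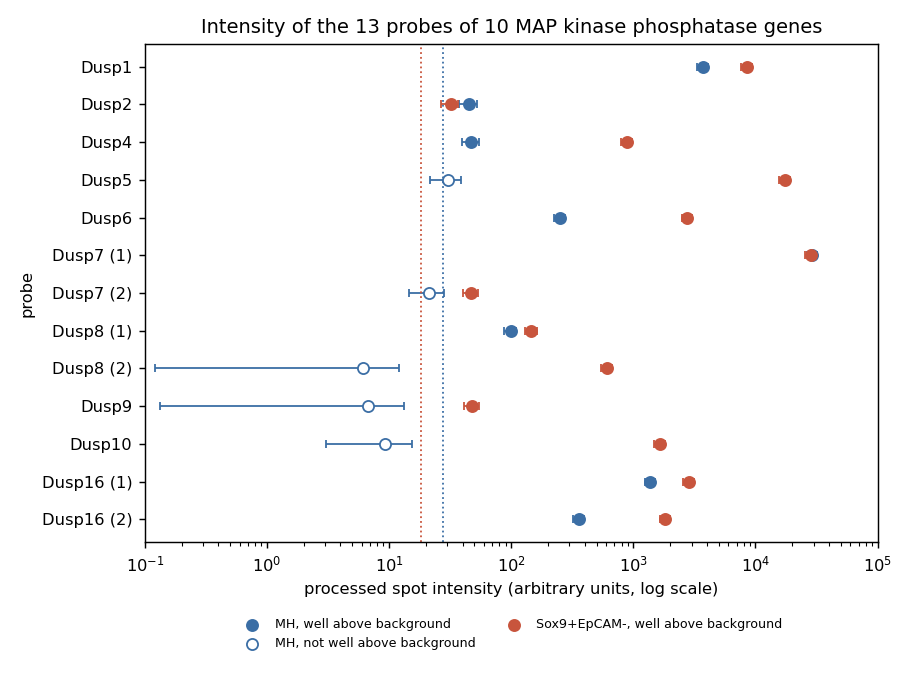
Processed spot intensity (log axis, arbitrary units) of each phosphatase probe in MHs (blue) and Sox9+EpCAM- cells (red), with the spot error of the scanner software as bars, open circles where a spot was not well above background, and dotted lines at the lowest signal well above background (27.8 in MHs, 18.4 in Sox9+EpCAM- cells). All 13 probes were well above background in Sox9+EpCAM- cells and 8 in MHs, and the widest gaps are those of Dusp5 and Dusp10.

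All 13 probes were well above background in Sox9+EpCAM- cells and 8 were in MHs. By gene, 7 were measured on both arrays and 3 (Dusp5, Dusp9 and Dusp10) in Sox9+EpCAM- cells only. Over all genes, 19232 were measured on both arrays, 3613 in Sox9+EpCAM- cells only and 572 in MHs only, so readings above background in Sox9+EpCAM- cells alone were common on this pair of arrays.

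Among the genes of nuclear enzymes, Dusp5 had the highest value of all 10 genes, itself a lower bound. DUSP5 dephosphorylates ERK in the nucleus and holds it there. Its probe, at chr19:53615682-53615741 (mm9, plus strand), read 30.2 ± 8.60 (spot error) in MHs, not well above background, and 17400 ± 1740 in Sox9+EpCAM- cells. The gene was thus at least 385-fold higher (log2 difference of at least 8.59). The MH signal carries a spot error, so this value is uncertain in both directions. Under 9 other settings it ran from 6.70, with normexp, to 8.85 on the log2 scale.

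The 250 bases before the Dusp5 start, chr19:53528895-53529144 on the plus strand (RefSeq promoter table, GRCm38.p6), are shown because this gene had the highest bound and because a script found in them a pair of serum response elements (the CArG box, searched on both strands), which are in capitals. The boxes lie 82 to 73 and 72 to 63 bases before the start, next to each other without overlap.
Dusp5 promoter: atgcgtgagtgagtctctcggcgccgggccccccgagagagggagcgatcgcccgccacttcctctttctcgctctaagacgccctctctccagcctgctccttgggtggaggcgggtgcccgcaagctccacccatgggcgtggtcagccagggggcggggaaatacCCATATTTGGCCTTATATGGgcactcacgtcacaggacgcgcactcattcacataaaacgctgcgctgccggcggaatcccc
A CArG box was present in 482 of 32851 promoters of the same length (1.47%) and in 1 of the 8 promoters found for the phosphatase genes. Serum response elements are bound by serum response factor with ETS-family partners that ERK phosphorylates. A match of letters is a description and not a bound site, and binding was not measured here.

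Dusp4 encodes another inducible nuclear phosphatase, with activity on ERK and JNK. Its probe (chr8:35882045-35882104, mm9, plus strand) read 47.1 ± 7.26 in MHs and 886 ± 88.6 in Sox9+EpCAM- cells. Both values were well above background, and the scaled difference was 3.65 ± 0.27 on the log2 scale (spot error only), or 12.6-fold. Of the 19232 genes measured on both arrays, 0.624% had a difference as high. The value depended on how background was handled. Normexp fits a model to the signals after the local background is subtracted, and here adds an offset of 50 to them. With it the log2 difference of Dusp4, which read 47.1 in MHs without it, was 2.52, over 4-fold but under 10-fold. The part of the offset alone was not tested.

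Dusp1, the first described member and an immediate early gene that is also induced by glucocorticoids, encodes a phosphatase of p38, JNK and ERK. Its probe read 3710 ± 371 in MHs and 8450 ± 845 in Sox9+EpCAM- cells, well above background on both. After scaling the difference was 0.60 ± 0.20 on the log2 scale, or 1.52-fold higher, and 19.1% of the measured genes were as high or higher. Dusp1 was under 4-fold with all 10 other settings as well (0.43 to 0.92). The array design places the Dusp1 probe at chr17:26642526-26642536 (mm9, minus strand), which covers 11 of its 60 bases.

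Dusp2, best known from activated leukocytes, was the 1 nuclear member with a lower value. Its probe (chr2:127163930-127163989, mm9, plus strand) read 45.1 ± 7.43 in MHs and 31.9 ± 5.04 in Sox9+EpCAM- cells. The scaled difference was -1.08 ± 0.33 on the log2 scale, or 2.12-fold lower, and 15.6% of the measured genes were as low or lower. Both signals lay close to the lowest signal well above background, and of the 10 leukocyte markers with a difference 9 were lower and Cd68 was higher, as given above. Their part in the Dusp2 value was not tested.

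**Figure D2:**
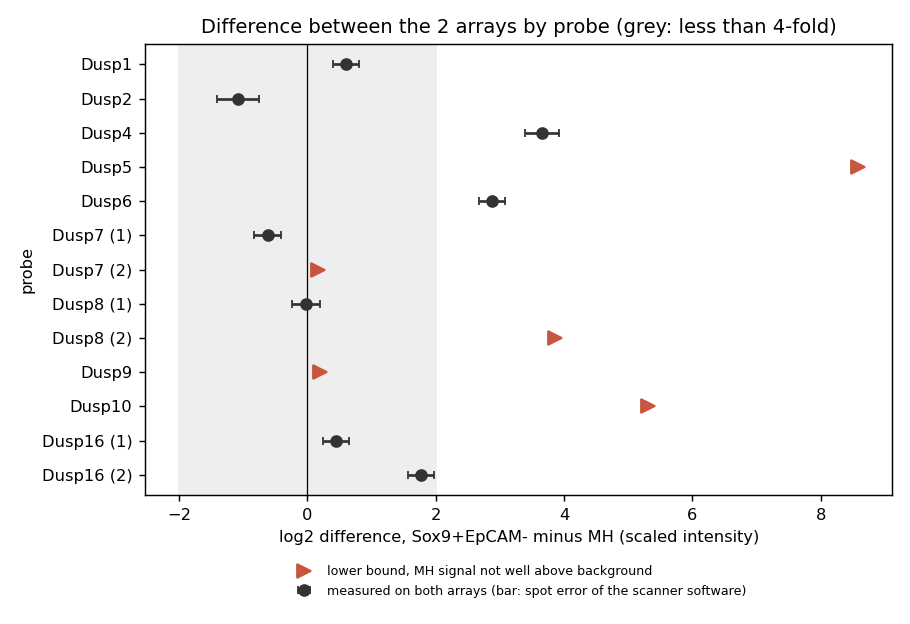
Log2 difference of scaled intensity (x axis, Sox9+EpCAM- minus MH) for each of the 13 phosphatase probes (y axis), with circles and spot-error bars where both arrays were above background, triangles for lower bounds, and a grey band for differences under 4-fold. Dusp4, Dusp5, Dusp6, Dusp10 and 1 of the 2 Dusp8 probes lie above the band, and no probe lies below it.

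Of the cytoplasmic ERK phosphatases, Dusp6 was higher. DUSP6 binds ERK tightly, and its gene is widely used as a readout of ERK activity. The Dusp6 probe (chr10:98729985-98730044, mm9, plus strand) read 250 ± 25.7 in MHs and 2760 ± 276 in Sox9+EpCAM- cells. The difference was 2.88 ± 0.21 on the log2 scale, or 7.37-fold, and 1.48% of the measured genes were as high. Dusp6 was clear of background on either array, and its values under the 10 other settings kept between 2.69 and 3.15.

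Dusp7, a close relative of Dusp6, has 2 probes that gave different pictures. The probe that stands for the gene by the rule of the highest mean signal (chr9:106277943-106278000, mm9, plus strand) read 29100 ± 2910 in MHs and 28400 ± 2840 in Sox9+EpCAM- cells. Its scaled difference was -0.62 ± 0.20 on the log2 scale, or 1.53-fold lower. The other probe, at the overlapping position chr9:106277985-106278044, read 21.4 ± 6.86 in MHs, not well above background, and 46.9 ± 6.26 in Sox9+EpCAM- cells, a bound of at least 1.13-fold higher. The 2 probes of Dusp7 therefore differ widely in level at overlapping positions. They also differ in sign, but the sign of the second rests on an MH signal not well above background.

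The sequences of the Dusp7 probes are shown because of this disagreement. Bases 16 to 45 of the first probe and bases 31 to 60 of the second are given 5′ to 3′ as deposited with the array, and capitals mark runs of a repeated dinucleotide.
Dusp7 first probe: acATATATATATATagACACACACACACat
Dusp7 second probe: acgttgtttatattgcaaataaatattatt
The stretch of the first probe holds 8 different words of 3 bases, against 16 in that of the second. Over its whole length the first probe holds 20 such words, beside a median of 36 over the 39429 probes that are not controls, outliers included, and 0.441% of probes hold as few. A run of 20 of its bases also occurs in a probe of 1 other gene name, and no such run was found in the other 12 phosphatase probes. When probes of low complexity were left out, a step chosen after this sequence and its values had been seen, Dusp7 stood at 0.17 on the log2 scale, as a bound. The part of the repeats in the signal of the first probe was not tested, and no direction is given for Dusp7.

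Dusp9, the X-linked member of the ERK group, was near the lower limit. Its probe (chrX:70888467-70888526, mm9, plus strand) read 6.69 ± 6.67 in MHs, not well above background, and 47.7 ± 6.51 in Sox9+EpCAM- cells. The bound was at least 1.15-fold higher, 0.20 on the log2 scale. The plain ratio of the scaled signals, without the bound, was 2.25 on the log2 scale, which rests on an MH signal no larger than its error.

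Among the phosphatases of JNK and p38, Dusp10 had the highest value. DUSP10 acts on JNK and p38 and is known for restraining inflammatory signalling. The Dusp10 probe (chr1:185898608-185898667, mm9, plus strand) read 9.27 ± 6.25 in MHs, not well above background, and 1650 ± 165 in Sox9+EpCAM- cells. It was at least 39.6-fold higher, 5.31 on the log2 scale. With normexp the difference was 3.80 and without the bound 6.89, and all 9 other settings that gave a value exceeded 4-fold.

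Dusp8 was read by 2 probes, and they disagreed. The probe that stands for the gene (chr7:149265961-149266020, mm9, minus strand) read 98.7 ± 11.3 in MHs and 146 ± 15.1 in Sox9+EpCAM- cells, a scaled difference of -0.02 ± 0.22 on the log2 scale. The other Dusp8 probe (chr7:149267534-149267593, mm9, minus strand) read 6.08 ± 6.05 in MHs, not well above background, and 607 ± 60.8 in Sox9+EpCAM- cells, at least 14.6-fold higher (3.87 on the log2 scale). With the median of both probes Dusp8 stood at 1.92 on the log2 scale, just under 4-fold. Whether the probes read different transcripts was not tested, and the count of 4 genes above does not include Dusp8.

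Dusp16, whose product acts mainly on JNK, was under 4-fold by both of its probes. The probe that stands for the gene (chr6:134668003-134668062, mm9, minus strand) read 1380 ± 138 in MHs and 2830 ± 283 in Sox9+EpCAM- cells, 0.45 ± 0.20 on the log2 scale or 1.37-fold higher. The other Dusp16 probe (chr6:134665783-134665842, mm9, minus strand) read 357 ± 36.1 and 1830 ± 183, 1.77 ± 0.21 on the log2 scale or 3.42-fold higher. Both probes were well above background on both arrays and higher in Sox9+EpCAM- cells. The gap between their log2 differences was 1.32. Among 3274 genes with exactly 2 probes measured on both arrays the median gap was 0.66 and the 90th percentile 2.11, and 24.5% of these genes had a gap at least that wide.

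**Figure D3:**
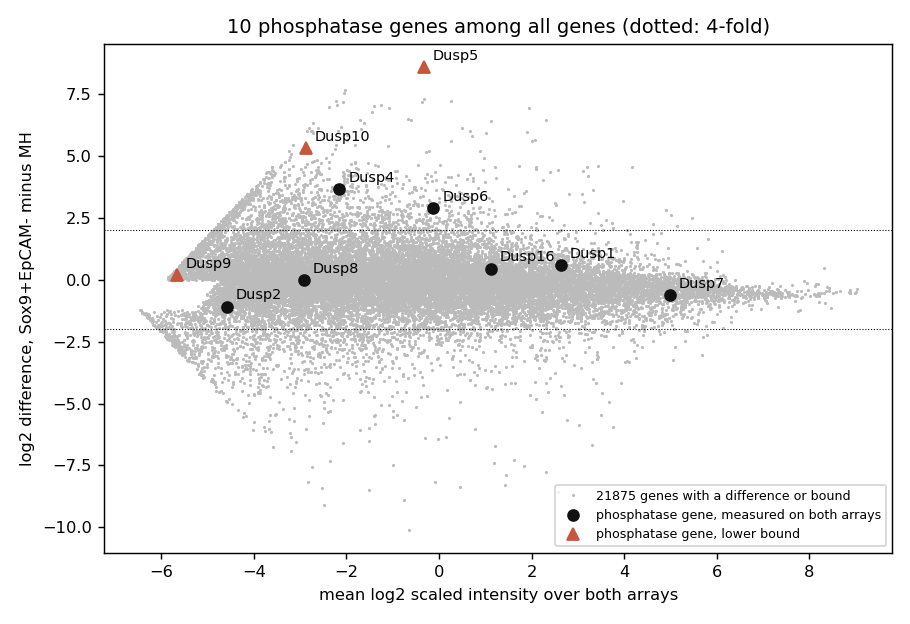
Log2 difference (y axis, Sox9+EpCAM- minus MH) against the mean log2 scaled intensity of both arrays (x axis) for 21875 genes (grey) and the phosphatase genes (black circles, measured on both arrays; red triangles, lower bounds), with dotted lines at 4-fold. Dusp4, Dusp5, Dusp6 and Dusp10 lie above the upper line, and Dusp1, Dusp2, Dusp7, Dusp8, Dusp9 and Dusp16 lie between the lines.

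Promoters of Dusp1 and Dusp8 are shown beside that of Dusp5 because both hold the cAMP response element, which is bound by CREB and by the ATF2 and JUN proteins that JNK and p38 phosphorylate. Capitals mark TGACGTCA, searched on both strands (the letters read the same on either). It lies 143 to 136 bases before the start of Dusp1 (chr17:26508473-26508722, minus strand), and 107 to 100 and 63 to 56 bases before that of Dusp8 (chr7:142095285-142095534, minus strand), all in GRCm38.p6 from the RefSeq table.
Dusp1 promoter: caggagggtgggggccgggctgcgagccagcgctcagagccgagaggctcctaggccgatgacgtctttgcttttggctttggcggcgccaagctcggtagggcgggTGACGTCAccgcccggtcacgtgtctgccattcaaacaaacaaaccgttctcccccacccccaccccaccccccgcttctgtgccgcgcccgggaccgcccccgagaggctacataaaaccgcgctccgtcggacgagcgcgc
Dusp8 promoter: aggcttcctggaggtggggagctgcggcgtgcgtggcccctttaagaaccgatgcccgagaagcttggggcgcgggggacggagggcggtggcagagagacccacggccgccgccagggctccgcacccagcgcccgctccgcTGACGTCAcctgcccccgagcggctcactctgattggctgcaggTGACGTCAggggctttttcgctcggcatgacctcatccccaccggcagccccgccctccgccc
The element was present in 508 of 32851 promoters (1.55%). Of the 8 phosphatase promoters matched by symbol, 0 held the AP-1 letters TGANTCA (6.75% of all promoters), 0 the ETS letters CCGGAAGT (2.88%) and 0 the TATA letters TATAAA (12.4%), each searched on both strands. These figures say only that the letters are not in this window. The motifs searched can overlap each other in principle, and those found here do not. The 8 promoters had a median GC content of 68.4%, beside 52.4% over all promoters. Dusp4 and Dusp9 were not matched. Of the 4 genes at least 4-fold higher, Dusp5 held the CArG boxes, Dusp6 and Dusp10 held none of the motifs searched, and Dusp4 was among the unmatched.

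The other genes of the pathway were read from lists of known members. Of the 10 MAP kinases, which the phosphatases act on, 8 had a difference, 1 was at least 4-fold higher and 2 were at least 4-fold lower, with a median of -0.04 beside the -0.12 over all genes. Mapk13, a p38 kinase, read 113 in MHs and 789 in Sox9+EpCAM- cells, 2.22 on the log2 scale. Mapk7, the kinase ERK5, read 358 and 78.3, -2.78 on the log2 scale. Mapk14, the main p38 kinase, was at -2.34 by 1 probe and at least 1.24 by the other. The median of the kinases changed sign between scalings (-0.21 with the deposited table and 0.23 with Gapdh set equal), so no direction is given for them. With normexp 0 MAP kinases were past 4-fold higher and 1 lower.

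Of 18 upstream kinases, 17 had a difference and 0 passed 4-fold in either direction, with values from -1.93 for Map3k11 to at least 1.31 for Map3k1 and a median of -0.49. With the deposited values 1 was past 4-fold lower, and without the bound 1 higher. The 14 effector proteins that MAP kinases phosphorylate likewise held 0 genes past 4-fold in either direction among 13 with a difference, from -0.75 for Mapkapk5 (another of its probes had a positive bound) to 1.56 for Rps6ka3. Of 5 scaffold genes 1 passed, Mapk8ip3, at 2.42 by its brightest probe and at 1.09 and -0.31 by the others.

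Targets of ERK include genes of transcription factors, receptors and a cyclin. Of 10 such genes, 9 had a difference and 5 were at least 4-fold higher, against 5.59% of all genes, with 0 at least 4-fold lower and a median of 2.75. The transcription factor gene Fosl1 was higher by at least 7.20 on the log2 scale, Myc by 5.97 and Egr1 by 4.39. The ephrin receptor genes Epha4 and Epha2 were higher by at least 2.90 and 2.75. Not all ERK targets followed, since the cyclin gene Ccnd1 was at -0.79, Etv4 at 0.32 and Etv5 at -0.32. With normexp 3 of the 9 passed 4-fold and the median was 1.33, and among the 6 genes measured on both arrays 2 passed and the median was 0.57.

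The Sprouty and Spred proteins restrain the same pathway upstream of ERK, and their 7 genes were listed with Errfi1 and Il17rd, which encode other inhibitors of receptor signalling. Of the 9 genes of this list 5 had a difference, and 1 was at least 4-fold higher, Spry1, at 18.4 in MHs (not well above background) and 311 in Sox9+EpCAM- cells, a bound of 2.90 on the log2 scale. With normexp 0 genes of the list passed. The lowest was Spred1 at -0.76 by the probe that stands for it and at least 1.76 by another, and the lowest value of the list was 0.12 with normexp, so no direction is given for Spred1. The median of the list was 0.35, with Errfi1 at 0.67 among its 5 values. Of the 9 genes, 3 (Spry3, Spry4 and Il17rd) were well above background on neither array.

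**Figure D4:**
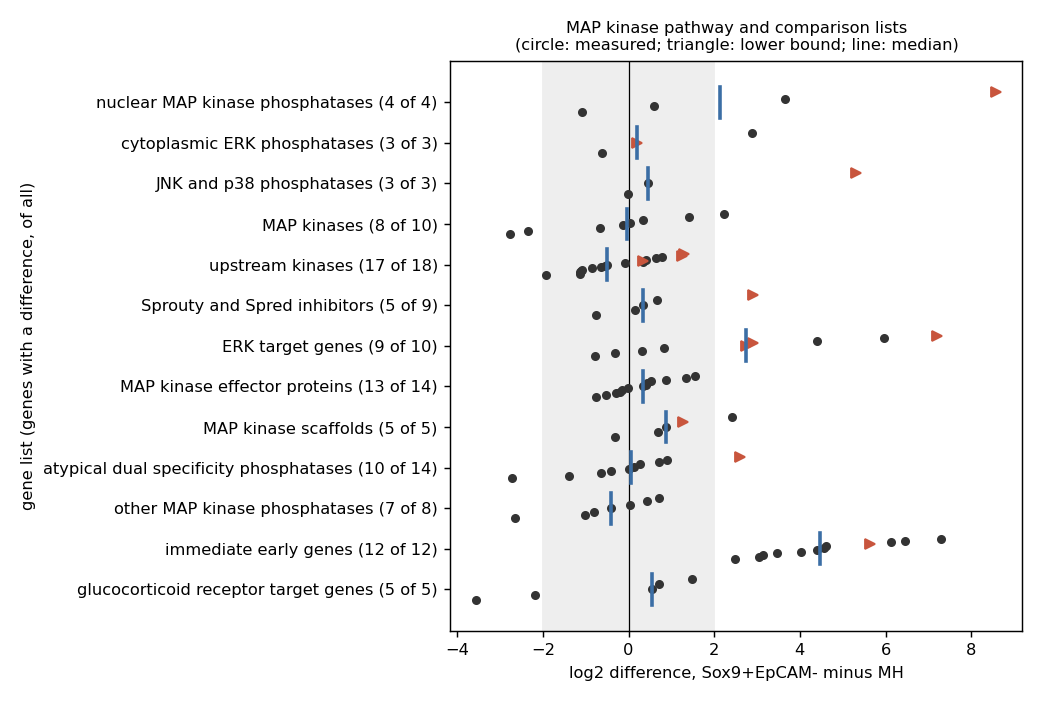
Log2 difference (x axis, Sox9+EpCAM- minus MH) of the genes with a difference or bound in each list (y axis, with the number of such genes of all in the list), with circles for genes measured on both arrays, triangles for lower bounds, a blue line for the median and a grey band for differences under 4-fold. All 12 immediate early genes lie above the band, while the 17 upstream kinases and the 13 effector proteins lie within it.

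The phosphatases were also set beside related and unrelated phosphatases. Of 14 atypical dual specificity phosphatases, which lack the MAP kinase binding domain, 10 had a difference, 1 was at least 4-fold higher (Dusp18, at least 2.60 by 1 probe and well above background on neither array by the other) and 1 was at least 4-fold lower (Dusp14, -2.71). Their median was 0.07, and it changed sign with the deposited table (-0.11) and with the median of all probes (-0.15). Of 8 other phosphatases that act on MAP kinases, from the tyrosine, PPM and PP2A families, 7 had a difference, 0 were at least 4-fold higher and 1 was at least 4-fold lower, Ppm1d at -2.66. Among genes with a difference, at least 4-fold higher were thus 4 of 10 MAP kinase phosphatases, 1 of 10 atypical ones and 0 of 7 others. Of the 23417 genes well above background on at least 1 array, 5.59% were as high. With normexp 0 of the atypical ones and 0 of the 8 others passed in either direction. The differences between these shares were not tested.

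Several of the phosphatase genes are themselves immediate early genes, induced within minutes by growth factors or by stress. All 12 immediate early genes of a list of known ones, in which Egr1 stands again, were at least 4-fold higher, with a median of 4.48 and values from 2.49 for Jun to 7.29 for Ier3, which holds back dephosphorylation of ERK. The AP-1 genes Fosb, Junb and Fos were at 6.46, 6.12 and 4.61, Egr2 was at least 5.63 and Atf3 was at 4.56. All 12 passed 4-fold under each of the other settings that kept them, and 11 of 11 did so among genes measured on both arrays. Only the Sox9+EpCAM- cells went through FACS, and only they came from injured livers. Readings of Xist and of genes of the Y chromosome also differed between the arrays. These circumstances cannot be told apart for the immediate early genes or for the phosphatases.

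Dusp1 is not on that list. At 0.60 it was below the lowest of the 12 immediate early genes, Jun at 2.49. Of 5 glucocorticoid receptor target genes, a class to which Dusp1 also belongs, 2 were at least 4-fold lower, Tsc22d3 (267 in MHs and 34.2 in Sox9+EpCAM- cells, -3.55 on the log2 scale) and Fkbp5 (-2.18), and 0 were at least 4-fold higher. With Gapdh set equal 1 of the 5 was at least 4-fold lower. Their median was 0.55 and their highest value was 1.49, for Per1, another probe of which was at 0.03.

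**Figure D5:**
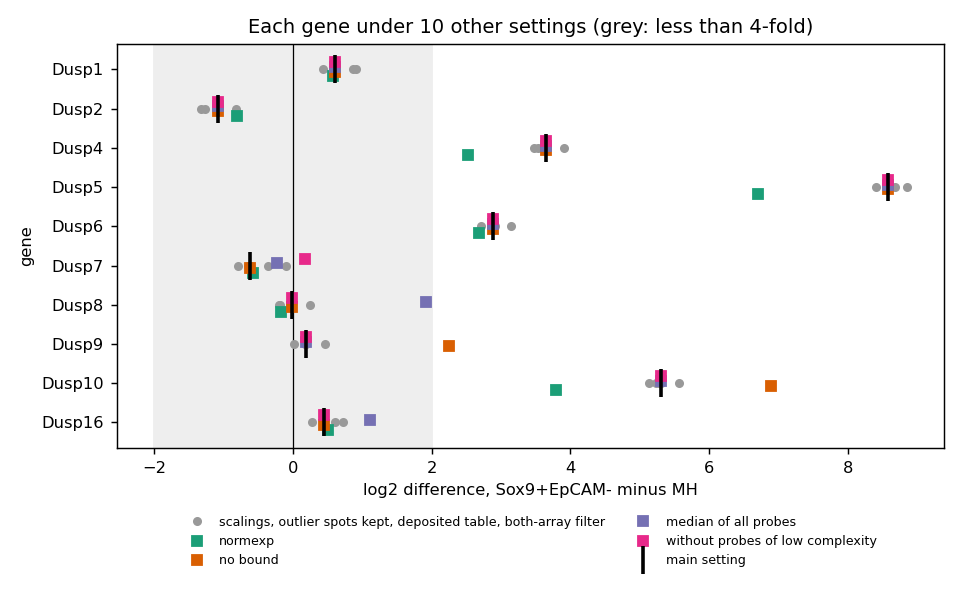
Log2 difference (x axis, Sox9+EpCAM- minus MH) of each phosphatase gene (y axis) with the settings of the report (black line) and under 10 others, among them normexp background correction (green), no bound for dim signals (orange), the median of all probes (purple) and leaving out probes of low complexity (pink), with a grey band for differences under 4-fold. Dusp4, Dusp5, Dusp6 and Dusp10 lie above the band under every setting that gave a value, and Dusp9 leaves the band only without the bound.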

How the data were processed

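RNA of 2 samples was hybridised to Agilent 1-colour arrays. The authors deposited the spot intensity of each array as Feature Extraction 10.7.3.1 wrote it, background-subtracted and not normalized between arrays, with mean and background intensities and flags. Also deposited by the authors were ratio values, in which the processed intensity is divided by a constant per array (column medians 1.00, SD of the log2 factor 0.0018), so its scale is the array median. Probe positions are those of the array design (mm9); exon and UTR annotation of the probes was not analysed here.

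From each log2 intensity the 75th percentile of its array was subtracted. Controls were dropped, as were spots with a flag for non-uniformity or for being a population outlier on either array, and replicate spots were averaged. The probe brightest on average stood for its gene. Each group was 1 array, so no test was run. Of the columns of sample values 0 were unused. Every phosphatase gene is named with every probe; of each pathway or comparison list the genes at least 4-fold different are named, up to 6, largest first, otherwise the extreme in each direction; the few others (marker genes, Mapkapk5 probes, Etv4, Etv5, Ccnd1, Spred1, Jun and Per1 among them) were named with their values known. The genes and lists were chosen with earlier results of these data known.

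The other settings were normexp (offset 50, limma 3.58.1, R 4.3.3), quantile normalization, scaling to Gapdh or to the median of probes bright enough on both arrays, the deposited table, keeping outlier spots, the median of a gene's probes, dropping the bound, restricting to genes measured on both arrays, thresholds of 2-fold and 10-fold, and leaving out the probes with the fewest different 3-base words (at most 1% of all), which was chosen after seeing the data. A value counted as moved beyond 1.5-fold. Python 3.11.15 with pandas 2.3.3, numpy 2.4.6 and matplotlib 3.10.9 was used. The procedure was run on simulated data, a copy of the MH array with known changes and noise added. Recovery was scored only for genes measured on both arrays. The run therefore did not cover lower bounds, probes that disagree or arrays of unlike overall signal. Promoter sequences are from a RefSeq table of GRCm38.p6. A comparison of the phosphatase proteins was not run.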

Additional observations from a re-analysis of the deposited data

How the results depend on the processing

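Dusp4, Dusp5, Dusp6 and Dusp10 were at least 4-fold higher under every setting that gave them a value. Of 95 values of the 10 phosphatase genes under 10 alternatives, 8 moved by more than 1.5-fold and 0 called values changed sign. Many of these values could not move, so the tally is no broad check. Keeping outlier spots and the choices of probe, bound and filter leave most genes with 1 probe measured on both arrays unchanged. Scaling to Gapdh or to a median and the deposited table shift all genes by 1 constant each. The count of phosphatase genes at least 4-fold higher was 4 with the settings of the report. Without the bound it was 5, beside 1949 of 23417 genes. With only genes above background on both arrays it was 2 of 7, beside 758 of 19232 genes. Dusp5 and Dusp10 are left out there by construction. The count lower was 1 at 2-fold, Dusp2, which normexp (-0.81) and Gapdh set equal (-0.82) brought under 2-fold. In sign, Dusp8 turned to 0.25 with Gapdh set equal and to 1.92 with the median of all probes. The median log2 difference of the phosphatase genes was 0.53, but 1.52 with the median of all probes, where the second probes of Dusp8 and Dusp16 enter, and 1.43 without the bound. Dusp7 moved to 0.17 without probes of low complexity, an alternative added after the data were seen. Over all genes, 1309 were at least 4-fold higher and 1304 lower, against 612 and 660 with normexp, and 758 higher with only genes above background on both arrays. The share of higher genes among those past 4-fold was 50.1%, and 62.1% with Gapdh set equal, which shifted the median of all measured genes by 0.27. The deposited table shifted it by -0.18. Beyond these constructions the cause was not tested. Signals near 27.8 in MHs and 18.4 in Sox9+EpCAM- cells limit what could be measured, which touches Dusp2, Dusp4, Dusp5, Dusp9, Dusp10 and the second probes of Dusp7 and Dusp8. Dusp4 moved to 2.52 with normexp. The slide as a block was not run, and no replicate could be left out. No paired analysis was possible because MHs and Sox9+EpCAM- cells have 1 array each.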
